A study of Mus musculus with 12 samples.

Results

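The 10 genes described here belong to the liver sinusoidal endothelium and were followed in bulk RNA-seq of whole mouse liver. They were chosen as listed endothelial identity, angiocrine and capillarization genes, and were found in the count table by mapping its Entrez identifiers to mouse symbols. All 10 were present, each once, among the 27179 genes of the table. The identity genes were Stab2, Lyve1, Clec4g and Oit3. The angiocrine genes, which encode signals that endothelial cells send to hepatocytes, were Rspo3, Wnt2, Wnt9b and Bmp2. Plvap and Cd34 stood for capillarization.

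The study asked how dietary protein affects liver tumors driven by oncogenes. The study describes the mice used for this tumor model as of mixed 129/Ola and C57BL/6 background, and its general methods name C57/Bl3 males. They were males 8 weeks old when they began the chow diet (CD) or the low-protein diet (LPD), 1 week before plasmids were injected hydrodynamically into the tail vein, and they stayed on that diet until harvest. The plasmids carried Sleeping Beauty transposase with either empty vector (Vec) or 2 oncogenes, a human c-MET and a β-catenin made constantly active by loss of its N terminus. This injection mainly reaches hepatocytes, and only some of them. Crossing diet with injection gave 4 groups, each with 3 libraries from 3 livers, and the c-MET/β-catenin groups are called CD oncogene and LPD oncogene livers here. All were collected at the time the CD oncogene mice had to be killed. The count table's columns for the CD livers carry HPD, the abbreviation the study uses for high protein, while their titles say chow. The titles were followed, and every CD value here rests on that reading. The labels name the cell type as hepatocyte, but the tissue was liver, and all 15 pan-endothelial genes listed for the check were above the filter on low counts.

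Sinusoidal endothelial cells line the capillaries of the liver lobule. Unlike other capillary cells they are perforated by open pores, lack a continuous basement membrane and carry scavenger receptors that clear waste from blood. Those near the central vein release Wnt ligands and R-spondin, which keep β-catenin active in neighboring hepatocytes and so maintain pericentral genes such as Glul and Axin2. They also release Bmp2 and Bmp6, which drive hepatocyte synthesis of hepcidin, the iron hormone encoded by Hamp. Loss of pores with gain of ordinary capillary markers such as Cd34 is called capillarization, and it accompanies fibrosis and liver tumors.

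RefSeq promoter sequences (GRCm38.p6, the assembly also called mm10) were at hand for 5 of the 10 genes, Stab2, Clec4g, Wnt2, Wnt9b and Cd34. Shown here, 5′ to 3′ on the strand of the gene, are stretches upstream of the start of 2 genes that were lower in CD oncogene livers (Clec4g and Wnt2), of Wnt9b, the other sinusoidal Wnt gene, which was not called, and of Cd34, which was higher. Capitals mark GGAA or its reverse complement TTCC, the core bound by ETS factors, a family with endothelial members such as Erg. Bases lying in an annotated exon of the gene were left out. The Clec4g stretch is chr8:3720696-3720901 on the minus strand, Wnt2 is chr6:18030586-18030695 on the minus strand, Wnt9b is chr11:103749822-103750071 on the minus strand and Cd34 is chr1:194938571-194938818 on the plus strand.
Clec4g: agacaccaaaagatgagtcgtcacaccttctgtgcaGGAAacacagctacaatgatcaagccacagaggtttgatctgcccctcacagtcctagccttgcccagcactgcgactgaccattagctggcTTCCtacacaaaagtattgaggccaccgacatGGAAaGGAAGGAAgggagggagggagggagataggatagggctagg
Wnt2: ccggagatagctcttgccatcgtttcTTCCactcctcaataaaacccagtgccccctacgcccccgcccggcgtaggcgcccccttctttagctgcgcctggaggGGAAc
Wnt9b: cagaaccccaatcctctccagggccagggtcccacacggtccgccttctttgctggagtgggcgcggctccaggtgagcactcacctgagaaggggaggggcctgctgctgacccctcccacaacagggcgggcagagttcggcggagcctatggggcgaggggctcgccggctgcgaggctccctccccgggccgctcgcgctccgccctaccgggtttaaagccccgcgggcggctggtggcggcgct
Cd34: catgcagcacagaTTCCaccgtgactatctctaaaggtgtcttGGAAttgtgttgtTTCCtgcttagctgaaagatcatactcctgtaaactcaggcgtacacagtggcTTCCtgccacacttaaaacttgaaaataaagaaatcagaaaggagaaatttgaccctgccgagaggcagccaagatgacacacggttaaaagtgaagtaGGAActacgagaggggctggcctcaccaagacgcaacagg
In the full window of 250 bases before the start, GGAA on either strand occurred 6 times for Stab2, 5 times for Clec4g, 4 times for Wnt2, 5 times for Cd34 and 0 times for Wnt9b. It occurred at least once in 93.4% of the 32817 promoters of the table, so a window without it, as for Wnt9b, was the less common case. GATAAG (bound by GATA factors such as Gata4, 6.6% of promoters), ACAAAG (bound by the β-catenin partners of the TCF family, 16.5%) and the E-box CACGTG (6.0%) were searched on both strands and occurred in none of the 5 windows. The Wnt2 and Wnt9b windows lie upstream of the start in the promoter table but inside the wider RefSeq span of the gene. These matches describe letters in the windows and were not tested against expression.

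Libraries held 19476209 to 31990267 counts. Levels are given as CPM, read counts relative to library size, scaled between libraries by the trimmed mean of M values (TMM), and a gene at 1 CPM had 19.48 counts in the smallest library before scaling. Changes are log2 fold changes from edgeR's quasi-likelihood test over all 13947 genes that passed the filter on low counts, with their standard errors (SE), and a gene was called at a Benjamini-Hochberg adjusted p under 0.05. All 10 genes passed the filter. The mean log2 CPM of the 15 pan-endothelial genes was lowest in CD Vec replicate 2, at 3.18 against 4.01 and 3.71 in the other CD Vec livers, so calls are also given without that library where this changes them. In whole liver, fewer cells of a type and less RNA of a gene per cell cannot be told apart.

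On CD, oncogene livers had lower levels of 5 of the 10 genes than Vec livers and a higher level of 1. Wnt2, Bmp2, Rspo3, Clec4g and Oit3 were lower and Cd34 was higher, while Stab2, Lyve1, Wnt9b and Plvap were not called. Of all genes tested, 35.4% were called in this comparison, 18.7% higher and 16.7% lower. The median log2 fold change of the 10 genes was -0.79, against -0.01 over all genes. In 6 of the 10 the 2 groups did not overlap, as in 42.6% of all genes.

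**Figure D1:**
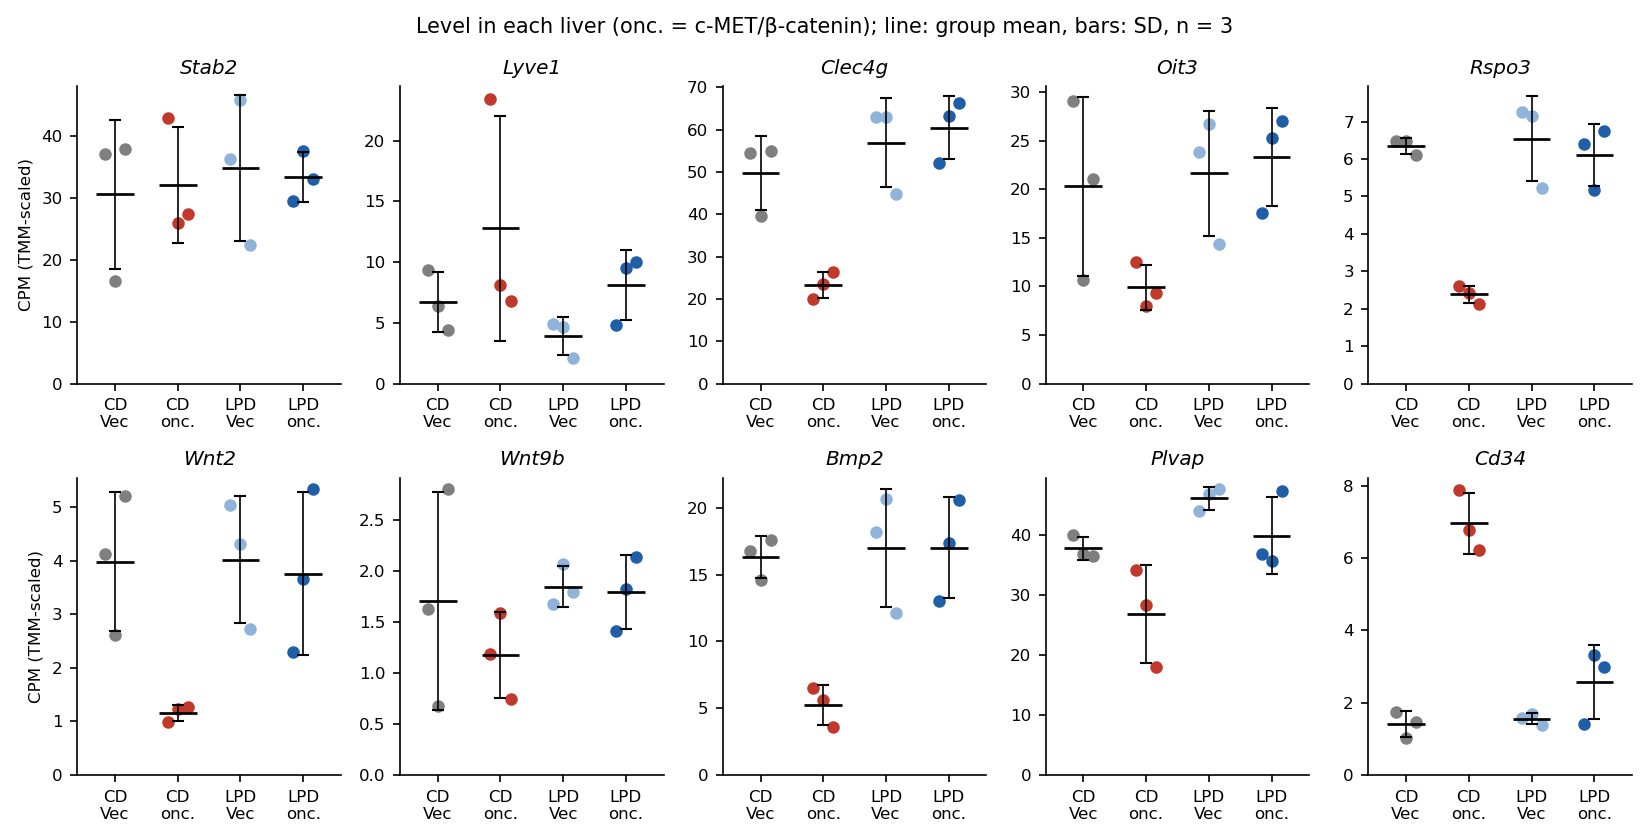
Level of each of the 10 genes in each liver (vertical axes, CPM from 0; a separate scale for each gene) in the 4 groups, where onc. marks the oncogene groups. Points are livers, horizontal lines group means and bars SD (n = 3). For Wnt2, Bmp2, Rspo3 and Clec4g the 3 CD oncogene livers lie below the 9 other livers, and for Cd34 they lie above them.

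Among the angiocrine genes, Wnt2 (chr6:17985474-18032772) encodes a secreted Wnt made mainly by sinusoidal and central vein endothelium. It was at 4.13, 2.62 and 5.21 CPM in CD Vec livers and at 0.982, 1.22 and 1.27 CPM in CD oncogene livers. The LPD Vec livers had 5.04, 4.31 and 2.72 CPM, and the LPD oncogene livers 2.30, 3.65 and 5.33 CPM. Every CD oncogene liver was below every other liver, and the other 3 groups overlapped. The log2 fold change on CD was -1.78 (SE 0.37, adjusted p = 0.00292). These levels rest on 30 to 34 counts per library in the CD oncogene group and 46 to 122 in the others.

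Wnt9b (chr11:103727362-103775272), the partner of Wnt2 in central vein endothelium, did not share this pattern at a detectable size. It was at 1.63, 0.682 and 2.81 CPM in CD Vec, 1.18, 1.59 and 0.749 CPM in CD oncogene, 1.68, 2.07 and 1.79 CPM in LPD Vec and 1.42, 1.82 and 2.14 CPM in LPD oncogene livers. CD Vec and CD oncogene livers overlapped, as did the LPD groups, while the CD oncogene livers lay below the LPD Vec livers. The log2 fold change on CD was -0.55 (SE 0.43, adjusted p = 0.352), with a 95% interval of -1.49 to 0.40. With 12 to 54 counts per library, a fall as large as that of Wnt2 lay outside the interval, but a fall like that of Clec4g lay inside it.

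Rspo3 (chr10:29453106-29535867) encodes an R-spondin, which prolongs Wnt signals by removing the ubiquitin ligases Rnf43 and Znrf3 from the cell surface, and is made by central vein endothelium and stellate cells. It was at 6.47, 6.48 and 6.09 CPM in CD Vec livers and at 2.60, 2.41 and 2.13 CPM in CD oncogene livers. LPD Vec livers had 7.25, 7.14 and 5.23 CPM and LPD oncogene livers 6.40, 5.16 and 6.74 CPM. The CD oncogene livers were again below all 9 others, and their level was 0.38 of that in CD Vec livers (log2 fold change -1.41, SE 0.20, adjusted p = 0.000274).

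Bmp2 (chr2:133552159-133562896), a ligand that raises hepcidin, was at 16.8, 14.6 and 17.6 CPM in CD Vec livers. It was at 6.53, 5.59 and 3.63 CPM in CD oncogene livers, at 18.2, 20.7 and 12.1 CPM in LPD Vec livers and at 13.1, 17.4 and 20.6 CPM in LPD oncogene livers. No CD oncogene liver reached the lowest of the others. The log2 fold change on CD was -1.63 (SE 0.26, adjusted p = 0.000553), a level of 0.32 of that in CD Vec livers.

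Of the identity genes, Clec4g (chr8:3707066-3720695), a C-type lectin used as a marker of liver sinusoidal endothelium, was at 54.5, 39.7 and 54.9 CPM in CD Vec livers and at 20.1, 23.6 and 26.3 CPM in CD oncogene livers. It was at 62.9, 63.1 and 44.7 CPM in LPD Vec and at 52.0, 63.1 and 66.2 CPM in LPD oncogene livers. The CD oncogene livers were below all others (log2 fold change -1.09, SE 0.18, adjusted p = 0.000695). Oit3 (chr10:59422960-59441779), a secreted protein of liver endothelium, was at 29.1, 10.7 and 21.1 CPM in CD Vec livers and at 12.5, 8.0 and 9.28 CPM in CD oncogene livers. Here the groups overlapped, because CD Vec replicate 2 lay between CD oncogene replicates 1 and 3. On CD it changed by -1.03 (SE 0.34, adjusted p = 0.0348). This call held in 8 of 12 fits that left out 1 library and was lost without CD Vec replicate 1 (-0.68, adjusted p = 0.15), CD Vec replicate 3 (0.0746), CD oncogene replicate 2 (0.106) or CD oncogene replicate 3 (0.0835). It was also lost with total counts only (-0.76, adjusted p = 0.102) and when only the CD groups were fitted (adjusted p = 0.0817).

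Stab2 and Lyve1, both receptors for hyaluronan, did not follow Clec4g. Stab2 (chr10:86841194-87008038), the scavenger receptor that clears hyaluronan from blood, averaged 30.5 ± 12.1 CPM in CD Vec, 32 ± 9.37 CPM in CD oncogene, 34.8 ± 11.7 CPM in LPD Vec and 33.3 ± 4.01 CPM in LPD oncogene livers (SD, n = 3). The 4 means differed by less than the SD within CD Vec, and the log2 fold change on CD was 0.07 (adjusted p = 0.892, 95% interval -0.64 to 0.78). Lyve1 (chr7:110850607-110862953), also expressed by lymphatic endothelium and some macrophages, was at 9.32, 6.37 and 4.43 CPM in CD Vec and at 23.4, 8.08 and 6.78 CPM in CD oncogene livers. It was at 4.89, 4.69 and 2.10 CPM in LPD Vec and at 4.79, 9.47 and 10.01 CPM in LPD oncogene livers. Each oncogene mean was above its Vec mean, but in CPM the groups overlapped on both diets (log2 fold change 0.93, adjusted p = 0.167 on CD and 1.05, adjusted p = 0.486 on LPD).

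Of the capillarization genes, Cd34 was called on CD and Plvap was not. Cd34 (chr1:194938821-194961292), a surface sialomucin of continuous capillaries that is scarce in sinusoids, was at 1.73, 1.02 and 1.46 CPM in CD Vec livers and at 7.88, 6.77 and 6.21 CPM in CD oncogene livers. LPD Vec livers had 1.58, 1.69 and 1.39 CPM, and LPD oncogene livers 1.42, 3.33 and 2.97 CPM. The 3 CD oncogene livers were above all others and their mean was 4.93 times that of CD Vec livers in the fit (log2 fold change 2.30, SE 0.32, adjusted p = 0.000251). Plvap (chr8:71497753-71511806), which forms the diaphragms of fenestrated capillaries, was at 39.9, 36.8 and 36.5 CPM in CD Vec and at 34.0, 28.4 and 17.9 CPM in CD oncogene livers. These groups did not overlap, but the change was not called (log2 fold change -0.49, SE 0.20, adjusted p = 0.0676). Without CD oncogene replicate 1 it was (-0.71, adjusted p = 0.0145).

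On LPD, oncogene and Vec livers did not differ in any of the 10 genes at the threshold in edgeR or DESeq2. In edgeR, 1 of the 10, Cd34, had an unadjusted p under 0.05, and in DESeq2 2 did. Of all genes tested, 1.32% were called (1.15% higher and 0.165% lower), and the groups did not overlap in 25.2% of all genes but in 0 of the 10. Cd34 was at 0.73 (SE 0.31, adjusted p = 0.397), with LPD oncogene replicates 2 and 3 above and replicate 1 within the range of the LPD Vec livers. For the genes that fell on CD, the 95% intervals on LPD were -0.85 to 0.66 for Wnt2, -0.53 to 0.54 for Bmp2, -0.52 to 0.31 for Rspo3, -0.30 to 0.47 for Clec4g and -0.62 to 0.84 for Oit3. None of these 5 intervals reached the fold change seen on CD. That fold change has its own error, and for Oit3 the CD interval (-1.78 to -0.28) overlapped the LPD interval. The difference itself is tested by the interaction below.

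**Figure D2:**
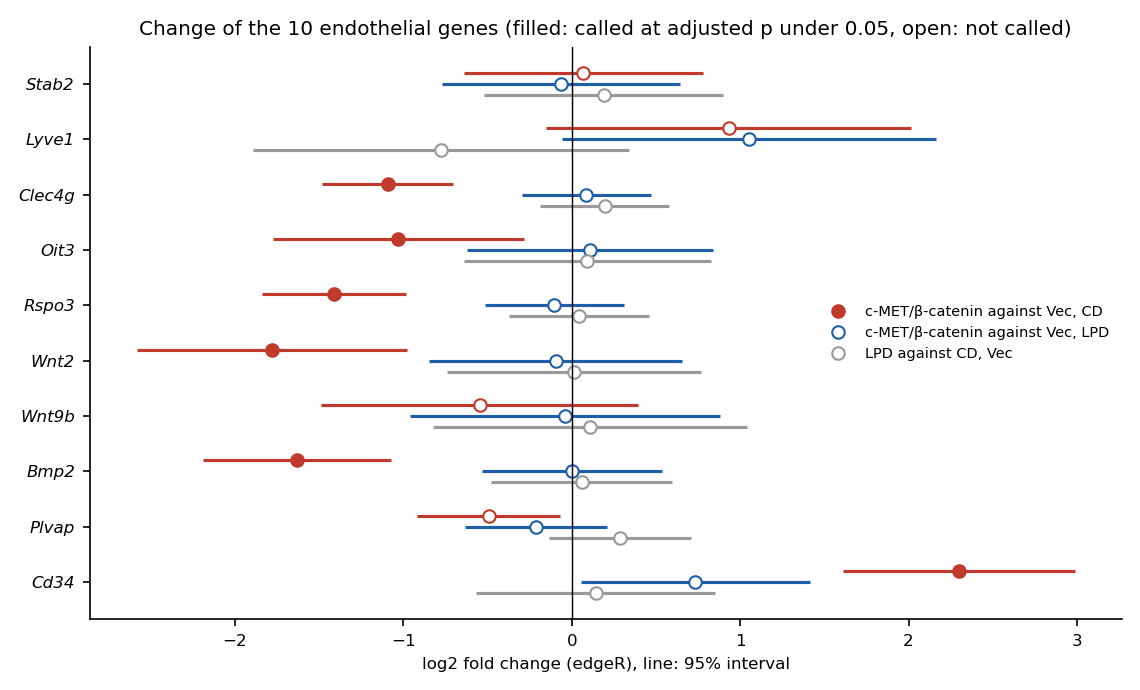
Log2 fold change (horizontal axis, edgeR) of the 10 genes for oncogene against Vec livers on CD (red) and on LPD (blue) and for LPD against CD in Vec livers (grey). Lines are 95% intervals, and filled points were called at an adjusted p under 0.05. The 6 filled points all belong to the CD comparison.

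Diet alone was compared in Vec livers, where 0 of the 10 genes were called by edgeR or DESeq2 and 0 had an unadjusted p under 0.05 in either. The background was also low, at 0.308% of genes called (0.186% higher and 0.122% lower). Fold changes ranged from -0.78 for Lyve1 (SE 0.51, adjusted p = 0.673) to 0.29 for Plvap (SE 0.19, adjusted p = 0.687). Plvap was the 1 gene of the 10 whose groups did not overlap, with 43.9, 46.8 and 47.5 CPM in LPD Vec livers, all above the CD Vec livers. Groups did not overlap in 17.2% of all genes.

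Between the diets in oncogene livers, 5 of the 10 genes were higher on LPD and 1 was lower. The study reports a lower tumor burden on LPD at this harvest. Diet and tumor load therefore cannot be told apart here or in the interaction below. This comparison shares the CD oncogene libraries with the CD comparison above, so the values are given side by side and are not independent of it. Of all genes, 20% were called, 8.66% higher and 11.3% lower, and the groups did not overlap in 39.3% of genes, against 7 of the 10 here. The log2 fold changes were 1.70 for Wnt2 (SE 0.37, adjusted p = 0.0078), 1.69 for Bmp2 (SE 0.26, adjusted p = 0.00135), 1.35 for Rspo3 (SE 0.20, adjusted p = 0.00114), 1.38 for Clec4g (SE 0.18, adjusted p = 0.000707) and 1.23 for Oit3 (SE 0.34, adjusted p = 0.0258). Cd34 was lower on LPD, at -1.42 (SE 0.30, adjusted p = 0.00677). Plvap was at 0.57 (adjusted p = 0.0581), Wnt9b at 0.61 (0.343), Stab2 at 0.06 (0.921) and Lyve1 at -0.66 (0.379). Oit3 was no longer called without CD oncogene replicate 2 (adjusted p = 0.082) or 3 (0.0649), or without LPD oncogene replicate 2 (0.0693) or 3 (0.0838). DESeq2 also called Plvap (0.56, adjusted p = 0.0429), as did edgeR without CD oncogene replicate 1 (0.79, adjusted p = 0.0166).

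A difference between the diets in the effect of the oncogenes was tested with the interaction, the log2 fold change on LPD minus that on CD. It was called for 4 of the 10 genes, 3 of them higher and 1 lower, against 8.91% of all genes (4.49% higher and 4.42% lower). It was 1.18 for Clec4g (SE 0.25, adjusted p = 0.0172), 1.31 for Rspo3 (SE 0.27, adjusted p = 0.016), 1.64 for Bmp2 (SE 0.35, adjusted p = 0.0185) and -1.57 for Cd34 (SE 0.44, adjusted p = 0.0472). For Wnt2 it was 1.69 (SE 0.50) and missed the threshold (adjusted p = 0.0572), although DESeq2 called it (1.68, adjusted p = 0.0167), as did edgeR without CD Vec replicate 2 (adjusted p = 0.0368) or LPD oncogene replicate 1 (adjusted p = 0.0441). Oit3 was at 1.14 (adjusted p = 0.159), and was called without CD Vec replicate 2 (1.45, adjusted p = 0.0457). The call of Cd34 held in 1 of 12 fits that left out a library, the one without LPD oncogene replicate 2, and its adjusted p otherwise ran up to 0.119. The call of Bmp2 was lost without LPD oncogene replicate 3 (1.48, adjusted p = 0.0521), and those of Clec4g and Rspo3 held in all 12.

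The column headers of the count table carry dataset numbers that form 3 runs, which the labels do not explain. These runs are unevenly spread over the groups. Run 1 held CD oncogene livers only, replicates 1 and 2. Run 3 held Vec livers only, and every LPD oncogene liver was in run 2. Group and run are therefore partly inseparable. Within a run, CD oncogene replicate 3 is the only liver of its group that can be set against other groups. With a term for these runs, Bmp2, Rspo3 and Cd34 were still called on CD and Plvap was called as lower (-1.09, adjusted p = 0.022), while Clec4g (-0.92, adjusted p = 0.0975), Oit3 (-1.09, adjusted p = 0.344) and Wnt2 (-1.67, adjusted p = 0.152) were not. In oncogene livers the same term kept the diet calls of Clec4g, Rspo3 and Bmp2 and added that of Plvap. Under it those of Wnt2, Oit3 and Cd34 were lost. No interaction was called with it by edgeR, where 5 of the 10 genes had an unadjusted p under 0.05. Within run 2, which holds 1 liver of each CD group and no replicate, the CD oncogene liver differed from the CD Vec liver by -1.96 for Wnt2, -2.25 for Bmp2, -1.48 for Rspo3, -1.06 for Clec4g, -1.18 for Oit3, -1.80 for Wnt9b, -1.02 for Plvap, -0.47 for Stab2, 0.60 for Lyve1 and 2.03 for Cd34 in log2 CPM. For Stab2 the sign is opposite to that over all libraries (0.13).

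To see whether the 10 genes moved with endothelial genes at large, each was set against the mean log2 CPM of the 15 pan-endothelial genes of the same liver. Relative to those genes, Bmp2 went from a log2 ratio of 0.40 ± 0.32 in CD Vec to -1.11 ± 0.21 in CD oncogene livers, Wnt2 from -1.66 ± 0.33 to -3.18 ± 0.45 and Rspo3 from -0.95 ± 0.43 to -2.19 ± 0.14 (SD, n = 3). Clec4g went from 1.99 ± 0.20 to 1.05 ± 0.46 and Oit3 from 0.60 ± 0.32 to -0.19 ± 0.21. Cd34 rose from -3.09 ± 0.06 to -0.68 ± 0.10. In each of these 6 the CD groups did not overlap, and the CD oncogene livers also lay outside the range of both LPD groups. On this ratio Lyve1 did not overlap between Vec and oncogene livers on either diet, with -1.53 to -0.49 in CD Vec, -0.47 to 0.78 in CD oncogene, -2.29 to -1.58 in LPD Vec and -1.30 to -0.66 in LPD oncogene livers, but CD Vec and LPD oncogene livers did. In LPD Vec and LPD oncogene livers Bmp2 was at 0.27 and 0.24, Rspo3 at -1.07 and -1.21 and Cd34 at -3.08 ± 0.18 and -2.51 ± 0.44. Stab2 was at 1.21 ± 0.33, 1.48 ± 0.20, 1.28 ± 0.21 and 1.22 ± 0.15 in the 4 groups. When libraries were scaled to the 15 genes in place of TMM, 5 of the 10 were called on CD, Wnt2 (-1.58, adjusted p = 0.00234), Bmp2 (-1.53, adjusted p = 0.000425), Rspo3 (-1.30, adjusted p = 0.00562) and Clec4g (-0.90, adjusted p = 0.0337) as lower and Cd34 as higher (2.48, adjusted p = 3.04e-06). Oit3 (-0.81, adjusted p = 0.0689) and Lyve1 (0.98, adjusted p = 0.0564) were not, and of the interactions those of Bmp2 (1.5, adjusted p = 0.0466) and Cd34 (-1.83, adjusted p = 0.0342) passed and those of Clec4g (0.95, adjusted p = 0.276) and Rspo3 (1.18, adjusted p = 0.202) did not. This scaling moved the median of all genes to 0.11 on CD and -0.16 for the interaction.

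**Figure D3:**
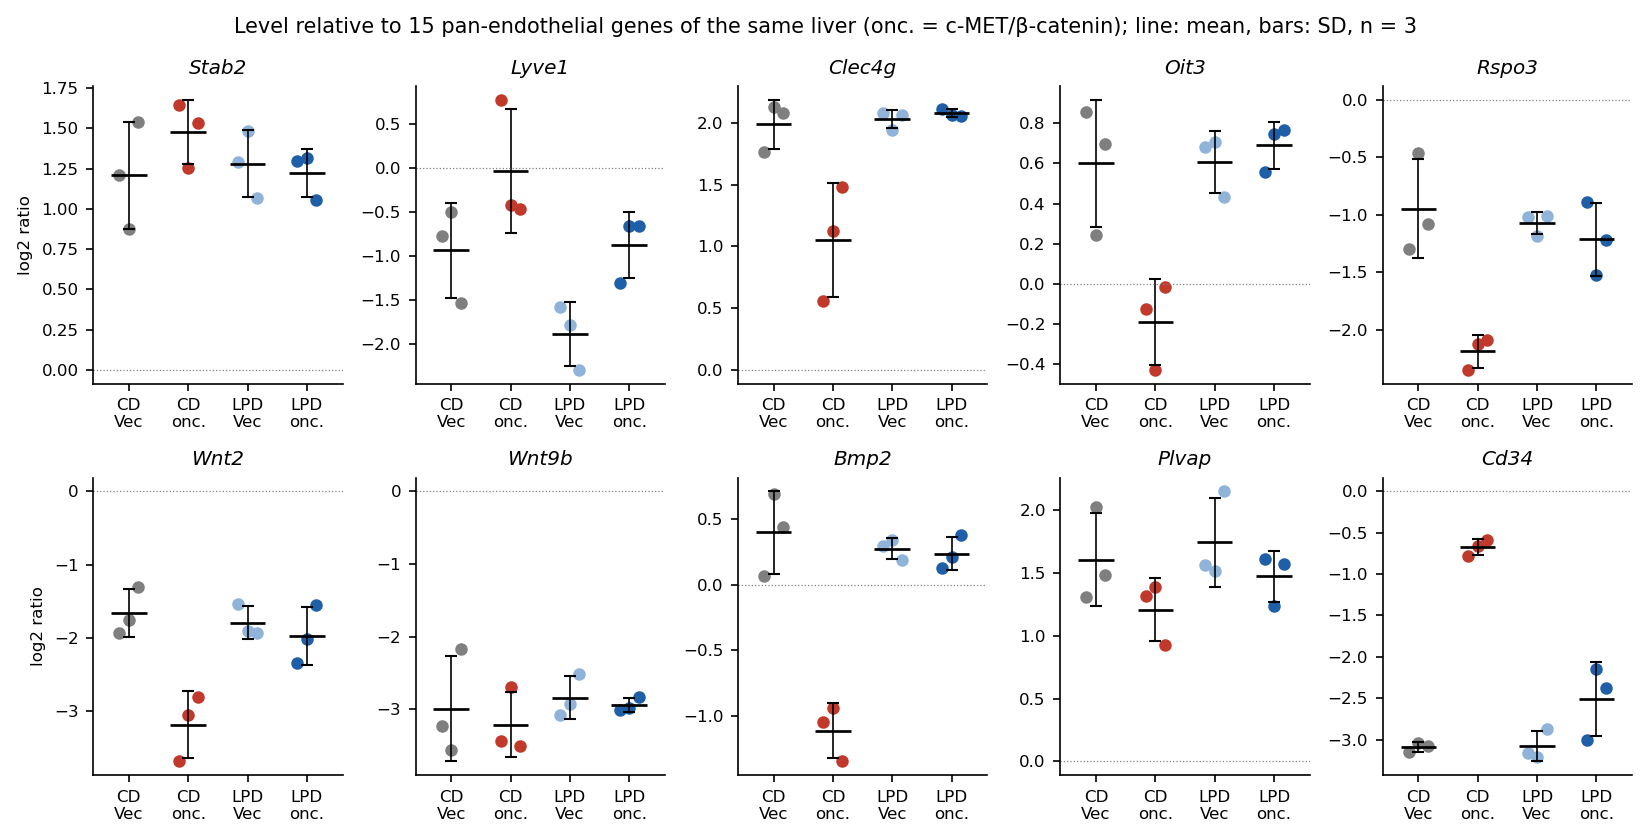
Log2 ratio of each of the 10 genes to the mean of 15 pan-endothelial genes of the same liver (vertical axes, a separate scale for each gene; the dotted line is 0) in the 4 groups, where onc. marks the oncogene groups. Points are livers, lines means and bars SD (n = 3). CD oncogene livers stand below the rest for Bmp2, Wnt2, Rspo3, Clec4g and Oit3 and above the rest for Cd34, while CD Vec and CD oncogene livers overlap for Stab2, Wnt9b and Plvap.

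Levels per kilobase of exon allow a rough comparison between genes. Length was the union of all annotated exons of a gene, so the ranking depends partly on annotated isoforms. Clec4g and Plvap stood highest in CD Vec livers, at 20.2 ± 3.53 and 19.0 ± 0.95 CPM per kb, and did not differ beyond their SD. They were followed by Oit3 (7.28 ± 3.31), Bmp2 (4.59 ± 0.43), Stab2 (3.49 ± 1.38), Lyve1 (2.30 ± 0.84), Rspo3 (2.05 ± 0.07) and Wnt2 (1.77 ± 0.58), of which each overlapped its neighbor within 1 SD. Wnt9b (0.38 ± 0.24) and Cd34 (0.19 ± 0.05) came last and overlapped each other within 1 SD. In CD oncogene livers Cd34, at 0.95 ± 0.12 CPM per kb, stood above Wnt2 (0.51 ± 0.07) and Wnt9b (0.26 ± 0.09) and within 1 SD of Rspo3 (0.77 ± 0.08).

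Other genes of the endothelium were taken from lists of known markers, which were chosen with earlier results of these data known. Of 12 other sinusoidal genes, 3 were lower on CD and 9 were not called, against 16.7% of all genes called lower, with a median log2 fold change of -0.51. The 3 were Ehd3, an endocytic recycling protein (64.7 ± 18.3 to 20.8 ± 2.48 CPM, -1.64, adjusted p = 0.000174), Dnase1l3, a secreted nuclease (-1.10, adjusted p = 0.0373), and Gata4, the transcription factor of sinusoidal identity (-0.79, adjusted p = 0.00314). The call of Dnase1l3 was lost without CD Vec replicate 1 (adjusted p = 0.145) or 3 (0.0891) and without CD oncogene replicate 1 (0.0863), 2 (0.113) or 3 (0.0525). Stab1, the relative of Stab2, was at 41.1 ± 7.74 and 42.8 ± 8.23 CPM (0.06, adjusted p = 0.862). Of the same 12 genes, 4 were higher in LPD than in CD oncogene livers (8.66% of all genes), and the interaction, higher in 4.49% of all genes, was called for Ehd3 (1.54, adjusted p = 0.0116) and Gata4 (0.95, adjusted p = 0.0282). That of Gata4 was lost without CD Vec replicate 3, CD oncogene replicate 2, any LPD Vec replicate or LPD oncogene replicate 3 (adjusted p up to 0.0688). With the term for header runs 1 of the 4 diet calls was left and both interaction calls were lost. The diet calls of Fcgr2b and Dnase1l3 each held in 8 of 12 fits that left out a library, and both were lost without CD oncogene replicate 2 or LPD oncogene replicate 2 or 3 (adjusted p up to 0.122). Fcgr2b was also lost without CD oncogene replicate 3 and Dnase1l3 without CD oncogene replicate 1. None was called on LPD or between the diets in Vec livers by edgeR or DESeq2, and 0 had an unadjusted p under 0.05.

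Of the 15 pan-endothelial genes, 2 were lower on CD (4 in DESeq2), against 16.7% of all genes, the vascular phosphatase Ptprb (-0.997, adjusted p = 0.00286) and the TGF-β coreceptor Eng (-0.59, adjusted p = 0.00618). The median of the 15 was -0.11, and it turned to 0.16 under scaling by total counts alone, which moved the median of all genes on CD from -0.01 to 0.28. Under it Eng was not called (-0.30, adjusted p = 0.123). Among the 13 not called were the receptors Kdr (-0.96, adjusted p = 0.0526) and Tek (-0.74, adjusted p = 0.0503) and the junction genes Pecam1 (0.34, adjusted p = 0.464) and Cdh5 (0.69, adjusted p = 0.192). Between the diets in oncogene livers 3 of the 15, Tek, Eng and Ptprb, were higher on LPD, against 8.66% of all genes, and these calls were lost with the term for header runs. Tek also lost its call without CD oncogene replicate 2 or 3 or LPD oncogene replicate 2 or 3 (adjusted p up to 0.0788). The summed level of the 15 ran from 212.4 to 364.9 CPM in CD Vec, from 192.3 to 270.5 CPM in CD oncogene, from 245.4 to 374.3 CPM in LPD Vec and from 279.6 to 354.3 CPM in LPD oncogene livers.

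Of 12 capillary, arterial and tumor endothelial genes, 11 were tested, and on CD 8 were higher, 0 lower and 3 not called, against 18.7% of all genes called higher, with a median log2 fold change of 2.02. Esm1, a secreted product of tip cells, went from 0.739 ± 0.689 to 10.7 ± 6.17 CPM (3.83, adjusted p = 0.0014), Mcam from 1.43 ± 0.94 to 8.43 ± 5.05 CPM (2.56, adjusted p = 0.00308), Unc5b, a netrin receptor of tip and arterial cells, from 6.76 ± 2.86 to 27.8 ± 16 CPM (2.04, adjusted p = 0.00639) and Fabp4, a lipid carrier of capillaries, from 4.86 ± 1.24 to 19.7 ± 13.0 CPM (2.02, adjusted p = 0.0018). Apln, a ligand of tip cells, had at most 3 counts in any CD Vec library and averaged 1.53 CPM in CD oncogene livers. Angpt2, an angiopoietin of sprouting endothelium, was higher too (1.62, adjusted p = 0.0113). Gja5, also among the 8, kept its call in 4 of 12 fits that left out a library (adjusted p up to 0.202). Vwf (0.31, adjusted p = 0.491), Sox17 (0.30, adjusted p = 0.585) and Lama4 (0.07, adjusted p = 0.883) were not called. Of the 11, 6 were lower in LPD than in CD oncogene livers (11.3% of all genes), and with the term for header runs these calls were lost. Among them Esm1 and Mcam held in 8 and 9 of 12 fits that left out a library, and both were lost without CD oncogene replicate 1 (-1.61, adjusted p = 0.104 and -1.56, adjusted p = 0.0545). With the term for header runs, 1 of the 11 and 1 of the 12 sinusoidal genes were called on CD, and Ptprb (adjusted p = 0.075) and Eng (0.17) lost their calls. For the interaction edgeR called 0, with 4 at an unadjusted p under 0.05, and DESeq2 called 3. On LPD edgeR called 0, with 3 at an unadjusted p under 0.05, and DESeq2 called 1.

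**Figure D4:**
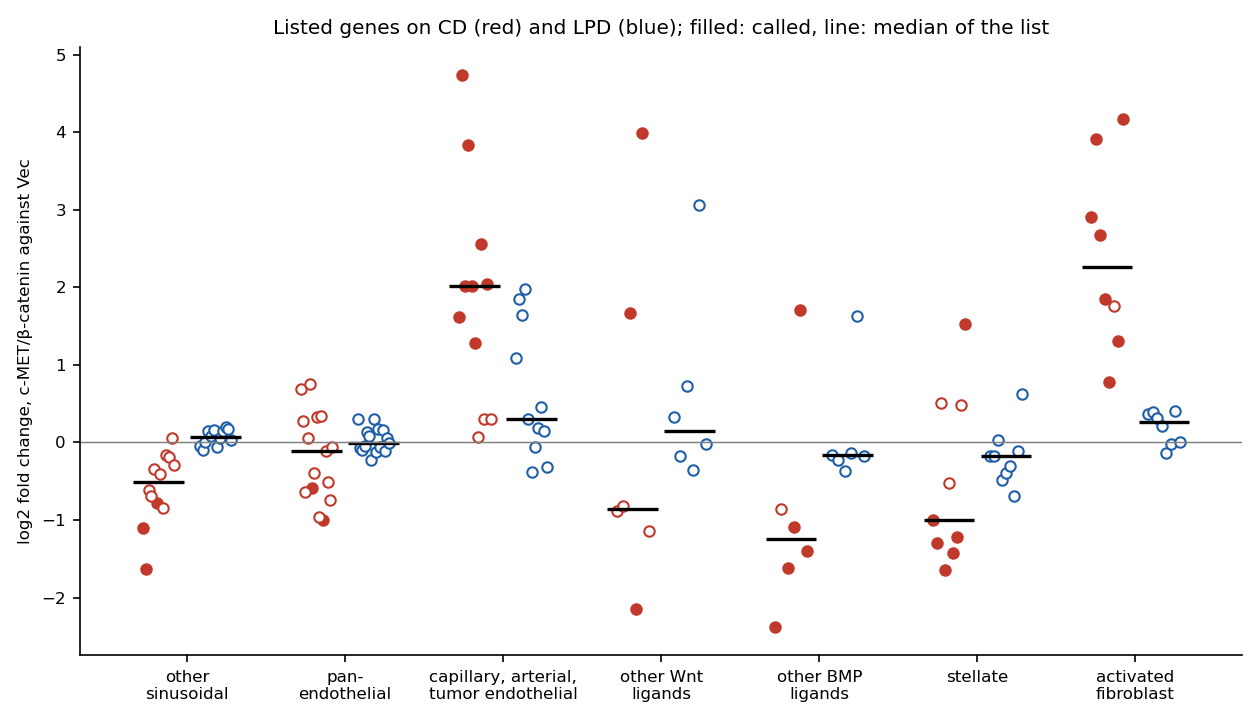
Log2 fold change of oncogene against Vec livers (vertical axis, edgeR) on CD (red) and on LPD (blue) for the tested genes of 7 lists. Each point is a gene, filled if called at an adjusted p under 0.05, and black lines are medians of a list. On CD the capillary, arterial and tumor endothelial genes have a median of 2.02 and the other sinusoidal genes one of -0.51, and on LPD no gene of these lists is filled. The topmost point of the capillary list is Apln, whose value depends on the few counts of the Vec livers.

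Of 17 other Wnt genes, 6 passed the filter. Wnt5b was lower on CD, at 9.49 ± 2.99 CPM in CD Vec and 2.14 ± 0.49 CPM in CD oncogene livers (-2.15, SE 0.26, adjusted p = 0.000108), with 8.41 ± 1.44 and 6.60 ± 0.31 CPM in the LPD groups and an interaction of 1.80 (adjusted p = 0.0126). Per kilobase, Wnt5b in CD Vec livers (3.58 ± 1.13 CPM per kb) lay above Wnt2. Wnt5a, a ligand known mostly for signals that do not need β-catenin, rose from 1.56 ± 0.49 to 5.005 ± 0.917 CPM (1.67, adjusted p = 0.000695), and Wnt6 rose from 0.104 ± 0.086 to 1.79 ± 1.40 CPM (3.99, adjusted p = 0.00381), from at most 4 counts in a CD Vec library. With the term for header runs the CD calls of Wnt5a and Wnt5b were kept, and those of Wnt6 and of the Wnt5b interaction were lost. Wnt2b (-0.89, adjusted p = 0.0666), Wnt4 (-0.82, adjusted p = 0.134) and Wnt9a (-1.15, adjusted p = 0.0592) were not called. None of the other 3 R-spondins passed the filter. Rspo1 had at most 27 counts in a library and Rspo2 and Rspo4 had 0 in every library, which allows up to 3 counts, so Rspo3 was the R-spondin measured here. The Wnt secretion genes Wls (-0.01, adjusted p = 0.985) and Porcn (0.10, adjusted p = 0.81) were not called on CD, nor in any other comparison by edgeR or DESeq2, and 0 had an unadjusted p under 0.05.

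On the receiving side, 12 of 17 Wnt and R-spondin receptor genes were tested and 4 were higher and 4 lower on CD, against 18.7% and 16.7% of all genes (5 and 2 under scaling by total counts, 3 and 0 with the term for header runs). The higher ones were Lgr5 (2.92 ± 1.89 to 30.7 ± 4.46 CPM, 3.38, adjusted p = 0.000499), an R-spondin receptor that is itself a β-catenin target, the ligases Rnf43 (1.85, adjusted p = 0.000266) and Znrf3 (1.36, adjusted p = 3.44e-05), and the coreceptor Lrp5 (1.62, adjusted p = 0.00213). The lower ones were Fzd8 (-1.41, adjusted p = 0.00254), Fzd4 (-1.22, adjusted p = 0.00956), Lrp6 (-0.49, adjusted p = 0.0404) and Lgr4 (-0.44, adjusted p = 0.0375). The calls of Lgr4 and Lrp6 held in 6 and 1 of 12 fits that left out a library. Lgr4 was at -0.25 (adjusted p = 0.175) without CD Vec replicate 3, and was also lost without any 1 of the CD oncogene livers or LPD Vec replicate 1 or 2. Lrp6 was at -0.37 (adjusted p = 0.153) without CD Vec replicate 1 and kept its call only without CD Vec replicate 2. Rspo3 was low in the livers in which its receptor Lgr5 was high. Of 14 hepatocyte Wnt targets, 11 were higher on CD (18.7% of all genes) and 8 on LPD (1.15% of all genes), and with the term for header runs 11 and 5. On LPD the calls of Oat, Lect2 and Sp5 held in 4, 7 and 8 of 12 fits that left out a library, and without LPD Vec replicate 1 all 3 were lost (adjusted p = 0.111, 0.085 and 0.064). The largest changes on CD besides Lgr5 were those of the inhibitor Nkd1 (4.22, adjusted p = 3.44e-05), the ammonium transporter Rhbg (3.44, adjusted p = 5.63e-05) and the factor Tcf7 (3.31, adjusted p = 5.91e-06). Among the 11 were also Axin2 (3.26, adjusted p = 9.61e-06 on CD and 1.63, adjusted p = 0.00485 on LPD) and Glul (3.10, adjusted p = 8.9e-06 and 1.71, adjusted p = 0.00241). Active β-catenin was injected into both oncogene groups, and its part in these targets cannot be told apart from that of endothelial ligands.

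Of 6 other BMP ligand genes, 4 were lower on CD (16.7% of all genes), 1 was higher (18.7%) and 1 was not called, and with the term for header runs 2 were lower. Gdf2, a ligand that acts on endothelium, was at 18.7 ± 1.66 CPM in CD Vec and 7.05 ± 1.99 CPM in CD oncogene livers (-1.40, adjusted p = 0.000637). Bmp10 was at -2.38 (adjusted p = 0.0157), Bmp5 at -1.62 (adjusted p = 0.00326) and Bmp6, the partner of Bmp2 in iron sensing, at -1.09 (adjusted p = 0.0341). The higher one was Bmp7 (1.71, adjusted p = 0.0138). The call of Bmp6 was lost without CD Vec replicate 1 (-0.70, adjusted p = 0.162) or 3 (0.0763) and without CD oncogene replicate 1 (0.0752) or 3 (0.092). Bmp10 was lost without CD Vec replicate 3 (adjusted p = 0.0596) and Bmp7 without CD oncogene replicate 2 (1.27, adjusted p = 0.0609). Of 18 BMP receptor and target genes, 9 were lower and 0 higher on CD, against 16.7% and 18.7% of all genes (4 and 2 under scaling by total counts, 3 and 0 with the term for header runs). Hamp was at 784.3 ± 255.2 CPM in CD Vec, 56.9 ± 43.6 CPM in CD oncogene, 787.3 ± 52.9 CPM in LPD Vec and 675.8 ± 283.8 CPM in LPD oncogene livers. Its log2 fold change on CD was -3.79 (SE 0.63, adjusted p = 0.000984), that on LPD was -0.22 (adjusted p = 0.949) and the interaction was 3.57 (SE 0.83, adjusted p = 0.0256). The interaction was lost without CD oncogene replicate 1, any LPD Vec replicate or LPD oncogene replicate 3, with an adjusted p of up to 0.0694. Hamp2 has a near-identical sequence, so the split of reads between the pair is uncertain (Hamp2, -6.53, adjusted p = 0.000521). Smad9, a SMAD of the BMP branch, was also lower (-1.47, adjusted p = 0.00223), as was the BMP target Id3 (-1.05, adjusted p = 0.0179), which lost its call without CD Vec replicate 2 (-0.65, adjusted p = 0.0714) or CD oncogene replicate 3 (adjusted p = 0.0603) and under scaling by total counts (adjusted p = 0.0585). The BMP target Id1 was not called (0.82, adjusted p = 0.23). Bmp2 and Hamp were both lowest in CD oncogene livers, and whether 1 change led to the other was not tested.

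Markers of other cells were read against the 18.7% of all genes that were higher and the 16.7% that were lower on CD. The shares of the VEGF (1 of 8 lower) and lymphocyte (1 of 7 higher) lists lay below these. Of 9 stellate cell markers, 5 were lower on CD, among them Dcn (-1.30, adjusted p = 0.000326), Lrat (-1.42, adjusted p = 0.00293) and Ecm1 (-1.64, adjusted p = 0.00185), 1 was higher (Reln, 1.53, adjusted p = 0.00178), and their summed level was 316.9 to 421 CPM in CD Vec and 218.8 to 366.6 CPM in CD oncogene livers. With the term for header runs 2 were lower and 0 higher. Their part in the fall of Rspo3 was not tested. Of 8 activated fibroblast markers, 7 were higher on CD, led by Timp1 (4.17, adjusted p = 0.000616), Col1a1 (3.92, adjusted p = 0.000985), Acta2 (2.92, adjusted p = 0.00686) and Col1a2 (2.68, adjusted p = 0.00355), with summed levels of 58.2 to 90.7 CPM in CD Vec and 112.9 to 599 CPM in CD oncogene livers, against 69.1 to 101.6 CPM in LPD oncogene livers. With the term for header runs these calls were lost, at 1.72 for Timp1, 1.73 for Col1a1, 0.77 for Acta2 and 0.60 for Col1a2. Fibroblasts can express Cd34, and their part in its rise was not tested. Of 10 Kupffer cell and macrophage markers, 3 were higher on CD (6 under scaling by total counts, 1 with the term for header runs), Cd68 (1.71, adjusted p = 0.000349), C1qa (1.32, adjusted p = 0.000774) and C1qb (1.25, adjusted p = 0.00894), with summed levels of 129.7 to 287.2 CPM in CD Vec and 265 to 425.9 CPM in CD oncogene livers. On LPD edgeR called 0 of the 10 and DESeq2 1, while 8 had an unadjusted p under 0.05 and in 8 the groups did not overlap (25.2% of all genes), with a median of 0.72 against 0.80 on CD. Their part in the levels of Lyve1 was not tested. Of 3 lymphatic markers, Ccl21a had 0 counts in every library, Pdpn was below the filter and Prox1, which hepatocytes also express, was not called (-0.21, adjusted p = 0.432). Of the VEGF ligands and receptors and Angpt1, 1 of 8 tested was lower on CD (Vegfa, -0.67, adjusted p = 0.0232, lost without CD Vec replicate 2 or CD oncogene replicate 2 or 3, with an adjusted p of up to 0.0809), and under scaling by total counts 2 were higher and 0 lower. Of 5 cholangiocyte markers 2 were higher, Krt19 (2.91, adjusted p = 7.05e-05) and Spp1 (2.87, adjusted p = 0.000127), and of 4 neutrophil markers both that were tested, S100a8 (2.20, adjusted p = 0.00701) and S100a9 (1.95, adjusted p = 0.00435), were higher. Of 7 lymphocyte markers 1 was higher (Cd8a, 3.72, adjusted p = 0.0013). Of 6 hepatocyte markers 3 were lower and 0 higher (1 and 1 under scaling by total counts), Cyp3a11 (-1.26, adjusted p = 0.0207), Ttr (-0.87, adjusted p = 0.00542) and Apob (-0.58, adjusted p = 0.00739). Cyp3a11 lost its call without CD Vec replicate 2 (adjusted p = 0.0701) or CD oncogene replicate 1 (adjusted p = 0.0625). With the term for header runs, the calls of the neutrophil, lymphocyte, hepatocyte and VEGF lists were lost and both cholangiocyte calls were kept. In LPD against CD oncogene livers, 5 of 9 stellate markers were higher and 1 lower, against 8.66% and 11.3% of all genes. Lower were also 6 of 8 activated fibroblast, 2 of 5 cholangiocyte and both tested neutrophil markers, and 0 of these were higher. With the term for header runs 3 stellate markers were higher, and 1 fibroblast and 2 cholangiocyte markers were lower. Their part in the diet differences of the 10 genes was not tested.

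Over the 12 libraries, the genes whose centered log2 CPM followed each gene most closely were ranked by the root mean square (RMS) difference among 13677 genes. For Wnt2 they were Cd300lg (0.19), Slc26a10 (0.23) and Ehd3 (0.25), against an SD of 0.84 for Wnt2 itself. Cd300lg, an endothelial surface protein, was also the closest to Bmp2 (0.20), ahead of Cadm3 and Col13a1, and was at 19.2 ± 4.41, 6.16 ± 0.39, 21.0 ± 5.54 and 19.8 ± 5.11 CPM in CD Vec, CD oncogene, LPD Vec and LPD oncogene livers. Dcn was closest to Rspo3 (0.18), followed by Ctnnbip1 and Tbkbp1. For Clec4g they were Glo1 (0.17), Acad11 and Npr1, and for Oit3 they were Cd55 (0.13), Kdr and Dnase1l3. Stab2 was followed most closely by Plekhg1 (0.10), Itga9 and Aqp1. For Cd34 the closest were Clec4n (0.24), Iqgap1 and Septin6. Wnt9b (Ribc1, 0.25) and Lyve1 (Bmper, 0.39) had looser matches. These are descriptions over libraries that share the group structure and depth.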

How the data were processed

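RNA was measured in whole liver from 12 mice, 1 library per mouse, in 4 groups of 3 taken from the labels, whose titles call Vec livers WT, and whose column names call chow HPD (high-protein diet in the study). The deposited values are raw integer counts per gene, which the authors made with HISAT2 (mm10) and featureCounts. How they set strand and treated multimapping reads is not given in the sources used here, so near-identical, overlapping and antisense genes are uncertain. The labels describe depletion of ribosomal RNA, the methods selection of mRNA. Of the 27179 genes, 93.1% matched a symbol in RefSeq or GENCODE.

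Counts were tested in R 4.3.3 with edgeR 4.0.16 (TMM factors of 0.864 to 1.12, filterByExpr, robust quasi-likelihood, common dispersion 0.0537) in 1 fit of all 4 groups without covariates, with Benjamini-Hochberg adjustment over 13947 genes. Alternatives were DESeq2 1.42.0, other scalings, no filter, only the groups compared, a replicate block, a term for header runs and leaving out each library. Scaling to pan-endothelial genes was added after seeing the data. The fit was tested on simulated data. Log2 CPM used a prior count of 2, and SE is the absolute log2 fold change over the root of F.

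The 10 genes and the gene lists were chosen with earlier results of these data known. The text names the 10 genes, and from each list up to 4 called genes with the largest changes and a group mean of at least 1 CPM, plus Wnt and R-spondin ligands, Lgr4, Lgr5, Rnf43, Znrf3, Axin2, Glul, Hamp and Id1. Fabp4, Angpt2, Gja5, Oat, Lect2, Sp5, Fzd4, Lrp6, Bmp6 and uncalled list members were named after their values were seen. P-values set a group difference against the spread between these livers, which was estimated over all 4 groups and moderated across genes. Counting error and depth limit genes below 1 CPM (19.48 counts). The genes closest in pattern to Plvap are not reported here.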

Additional observations from a re-analysis of the deposited data

Results flagged for a closer look

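A difference between the diets in the response to the oncogenes was called by the interaction (edgeR, log2 fold change on LPD minus that on CD) for the genes given here. Among the 10 endothelial genes these were Clec4g at 1.18, Rspo3 at 1.31, Bmp2 at 1.64 and Cd34 at -1.57. The sinusoidal genes Ehd3 and Gata4 were at 1.54 and 0.95. Of the Wnt ligands, Wnt5b was at 1.80. Among receptors, Lrp5 was at -1.76, Lgr5 at -2.40, Znrf3 at -0.81 and Rnf43 at -1.33. Among hepatocyte Wnt targets, Axin2 was at -1.63, Glul at -1.39 and Tcf7 at -3.06. In the BMP lists, Gdf2 was at 1.23, Smad9 at 1.54, Hamp at 3.57 and Hamp2 at 4.55. Among markers of other cells, Dcn was at 1.13, Col1a1 at -3.53, Krt19 at -3.10, Spp1 at -2.91, S100a8 at -3.16 and S100a9 at -2.47. The adjusted p of these ranged from 0.000373 for Tcf7 to 0.0487 for Lgr5. Groups of 3 livers are too small for a test of outliers. With the term for header runs, 1 hepatocyte Wnt target (Tcf7), 2 cholangiocyte markers (Krt19 and Spp1) and 1 BMP receptor or target gene were called. In the other lists given here 0 were called with it. The calls of the main fit held in 5 (Cd34 and Lgr5) to 19 (Tcf7, Krt19 and Spp1) of 19 alternatives. Many of these calls were lost when a single library was left out. Of 12 fits that left out 1 library, the call held in 1 for Cd34 and Lgr5, in 3 for Rnf43, Smad9, Hamp2 and Col1a1, in 5 for Lrp5 and S100a9, in 6 for Gata4 and Gdf2, in 7 for Hamp, in 8 for S100a8, in 9 for Znrf3, in 10 for Dcn and in 11 for Bmp2, and in all 12 for the other 9 genes.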

How the results depend on the processing

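The number of the 10 genes called was within 1.5 times the main number in each alternative for 4 of the 5 comparisons. For the interaction, 4 genes were called, against 2 when libraries were scaled to pan-endothelial genes, 0 with the term for header runs and 2 to 5 when 1 library was left out. Replicate numbers did not pair the livers: correlations of same-numbered deviations ran from -0.183 to 0.167, and 2 of 12 libraries correlated best with their own number. With the replicate block, 5 of the 10 genes were called on CD (Oit3 was lost, adjusted p = 0.0522), 0 on LPD, 0 between the diets in Vec livers, 6 in oncogene livers and 3 for the interaction (Cd34 was lost, adjusted p = 0.0835). Run 1 held CD oncogene livers only, so group and run cannot be fully separated. The cause of the loss with the header term was not tested.
Among the 10 genes, only values that were called in neither fit changed sign. With the header term these were Stab2 on CD (-0.28) and for the interaction (0.15), Bmp2 on LPD (-0.000314), Wnt9b between diets in Vec livers (-0.04) and Lyve1 between diets in oncogene livers (0.26). With total counts only they were on LPD Stab2 (0.04), Rspo3 (0.00657), Wnt2 (0.01) and Wnt9b (0.06), between diets in oncogene livers Stab2 (-0.01), and for the interaction Lyve1 (-0.04). Bmp2 on LPD was at -0.00809 with RLE factors and -0.00807 in DESeq2. Scaled to pan-endothelial genes, Stab2 was at -0.26 between diets in oncogene livers, Bmp2 at -0.03 on LPD, and between diets in Vec livers Oit3 was at -0.00987, Rspo3 at -0.16, Wnt2 at -0.14 and Bmp2 at -0.14. Of the list genes, Tagln turned to 0.07 between diets in oncogene livers with the header term (adjusted p = 0.95).
With 1 library left out, Stab2 ran from -0.23 to 0.25 on CD, -0.30 to 0.18 on LPD, -0.11 to 0.43 between diets in Vec livers, -0.07 to 0.33 in oncogene livers and -0.36 to 0.17 for the interaction. Lyve1 ran from -0.96 to 0.13 between diets in oncogene livers and -0.20 to 0.91 for the interaction. On LPD, Clec4g ran from -0.06 to 0.18, Oit3 from -0.12 to 0.28, Rspo3 from -0.24 to 0.00473, Wnt2 from -0.43 to 0.15, Wnt9b from -0.18 to 0.10 and Bmp2 from -0.19 to 0.16. Between diets in Vec livers, Oit3 ran from -0.22 to 0.44, Rspo3 from -0.03 to 0.18, Wnt2 from -0.22 to 0.26, Wnt9b from -0.27 to 0.67, Bmp2 from -0.11 to 0.25 and Cd34 from -0.04 to 0.32. Wnt9b ran from -0.93 to 0.01 on CD and -0.06 to 0.88 for the interaction.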
